A study of Homo sapiens with 6 samples.

Results

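The cystatins are small proteins that block cysteine proteases. They were described here through the 7 cystatin genes CST1, CST2, CST3, CST4, CST6, CSTA and CSTB, taken by name from the 21533 genes of the deposited tables. Lists of the proteases they block and of other inhibitors were set beside them. The genes were chosen with earlier results of the same comparison in view, so their own values are given as a description and without a test. RNA sequencing was carried out on LX-2, a cell line made from human hepatic stellate cells, the liver cells that lay down matrix when activated. In 3 samples the cells carried an siRNA against PERK, the endoplasmic reticulum stress kinase encoded by EIF2AK3, and in 3 samples a control siRNA. All 6 had then received palmitic acid, a saturated fatty acid, and were collected 24 h later, so each difference is one between siRNAs in lipid-treated cells of 1 line. The siRNA sequences and the dose of palmitic acid were not known here.

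Cystatins act as tight, reversible plugs in the active site of papain-like proteases, most of which are lysosomal cathepsins. The secreted type 2 cystatins have a signal peptide and act outside the cell or along the secretory route, while the type 1 cystatins, also called stefins, lack it and act in the cytosol. CST3 encodes cystatin C, the type made by most tissues. CST1, CST2 and CST4 encode cystatins SN, SA and S, which are best known from saliva. CST6 encodes cystatin E/M, which also blocks legumain, and CSTA and CSTB encode stefins A and B.

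The salivary genes are close copies, so their reads can be hard to place. The coding sequences of CST1, CST2 and CST4 in GENCODE v29 are each 426 bases long. Those of CST1 and CST4 share 92.7% of bases, those of CST1 and CST2 91.3% and those of CST2 and CST4 92.5%, whereas CST1 and CST3 share 72.3% of aligned bases. Below are the 90 coding bases, 260 to 349 counted from the start codon, in which the 3 genes differ least. They are shown because reads lying wholly within them can be told apart only at 1 position. Capitals mark that position, where CST2 differs and CST1 and CST4 are the same.
CST1: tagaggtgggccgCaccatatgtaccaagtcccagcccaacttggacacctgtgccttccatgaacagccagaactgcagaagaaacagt
CST2: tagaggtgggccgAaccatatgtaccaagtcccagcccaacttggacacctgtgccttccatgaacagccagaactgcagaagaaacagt
CST4: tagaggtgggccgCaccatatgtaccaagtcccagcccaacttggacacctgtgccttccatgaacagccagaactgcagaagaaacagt

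Depth was 17937141 to 19535253 total exon reads in the PERK siRNA samples and 18560051 to 19585872 in the control siRNA samples. CPM are reads scaled to library size with TMM factors, and TPM are the deposited values, which also allow for exon length. That length can exceed a gene's main transcript, so TPM compared between genes are approximate. The floor for detection was set at 3 reads, or 0.153 to 0.167 CPM of a library's total, and like all intervals given it concerns counting error alone. EIF2AK3 stood at 4.95 ± 0.57 CPM with PERK siRNA and 13.3 ± 0.54 CPM with control siRNA (SD, n = 3 each); by edgeR's quasi-likelihood test with Benjamini-Hochberg adjustment the log2 fold change was -1.42 (SE 0.10, adjusted p = 3.0e-13). Summed over the 10 stellate cell markers, the level was 6950 to 6957 TPM with PERK siRNA and 6286 to 6410 TPM with control siRNA, most of it VIM, COL1A1 and SPARC. The list did not move as one: of its 9 tested genes 5 rose and 2 fell by edgeR's test, beside 69.5% of all tested genes that passed it in either direction. ACTA2, the smooth muscle actin gene, rose (log2 fold change 1.95, SE 0.08, edgeR adjusted p = 7.9e-18), as did LOX (0.90) and COL1A2, which stood at 27.1 ± 1.62 CPM with PERK siRNA and 11.8 ± 0.28 CPM with control siRNA (SD, n = 3 each), while COL3A1 (-0.89) and PDGFRB (-0.17) fell and COL1A1 (0.01) and TIMP1 (-0.02) did not pass. DES, the desmin gene, had 1, 0 and 1 reads with PERK siRNA and none with control siRNA. The part of these differences in the cystatin values was not tested. The labels do not state that replicates were separate cultures. Errors and p-values therefore measure the spread among these samples, and that spread may be technical.

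The 3 salivary cystatin genes were lower in every PERK siRNA sample than in every control siRNA sample. CST1 (ENSG00000170373; chromosome 20, 23747553 to 23751268, minus strand, GRCh38) had 60, 35 and 40 reads with PERK siRNA, against 285, 267 and 317 with control siRNA. The corresponding levels were 13.5, 7.28 and 8.38 TPM with PERK siRNA and 58.7, 58.5 and 66.02 TPM with control siRNA. The groups lay far apart, and within the PERK siRNA group sample 1 was the highest. In CPM, CST1 averaged 2.41 ± 0.84 with PERK siRNA and 15.1 ± 1.16 with control siRNA (SD, n = 3 each), or 16.0% of the control level and a log2 fold change of -2.65 (SE 0.14). In bulk RNA, fewer cells making a transcript and less of it per cell cannot be told apart.

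CST2 and CST4 were scarcer than CST1 and lay on the same side. CST2 (ENSG00000170369; chromosome 20, 23823769 to 23826731, minus strand) had 8, 5 and 8 reads with PERK siRNA, against 22, 25 and 29 with control siRNA, a log2 fold change of -1.81 (SE 0.34). CST4 (ENSG00000101441; chromosome 20, 23685640 to 23689040, minus strand) had 3, 1 and 3 reads with PERK siRNA, at or under the floor, against 29, 18 and 20 with control siRNA. Summed over samples these were 7 and 67 reads, and the ratio of PERK siRNA to control siRNA was 0.106 after scaling for library size, with an exact 95% interval of 0.0412 to 0.231 for counting error only. For CST2 the ratio of the summed reads, 21 against 76, was 0.281 (0.165 to 0.461), and for CST1, 135 against 869, it was 0.158 (0.131 to 0.190). PERK siRNA sample 2 was the lowest of its group for all 3 genes. CST2 and CST4 passed the filter on low counts only through the control siRNA samples, where they were high.

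CST3, the cystatin C gene (ENSG00000101439; chromosome 20, 23626706 to 23638473, minus strand), was the most abundant member and differed little. Its levels were 245.2, 246.3 and 246.4 TPM with PERK siRNA and 266.4, 268.8 and 270.6 TPM with control siRNA. The groups did not overlap, but the gap was small: 255.9 ± 1.37 CPM with PERK siRNA and 278.3 ± 3.59 CPM with control siRNA (SD, n = 3 each), or 92.0% of the control level and a log2 fold change of -0.12 (SE 0.02). The secreted CST6 (ENSG00000175315; chromosome 11, 66011841 to 66013505, plus strand) had 1 read in 1 sample of each group and none in the others, all under the floor, so no fold is given.

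Of the cytosolic stefins, one was steady between groups and the other was not detected. CSTB, which encodes stefin B (ENSG00000160213; chromosome 21, 43772511 to 43776445, minus strand), stood at 89.6, 88.1 and 88.1 TPM with PERK siRNA and at 90.7, 81.5 and 93.5 TPM with control siRNA. The PERK siRNA samples lay inside the range of the controls, and the log2 fold change was 0.00 (SE 0.05). CSTA, the stefin A gene (ENSG00000121552; chromosome 3, 122325244 to 122341972, plus strand), a gene of squamous epithelia, had 0 reads in all 6 samples, which allows up to 0.167 CPM in the shallowest library. Of the 7 genes, 5 passed the filter, and 4 of these, CST1, CST2, CST3 and CST4, had PERK siRNA samples wholly below the control siRNA samples in CPM. Across all 12973 genes tested, 36.0% did so, and 71.8% had groups that did not overlap in either direction. A log2 fold change of -1 or below was found for 3 members, CST1, CST2 and CST4, and for 3.92% of all tested genes. Nothing is read from these counts, because the same comparison was in view when the members were chosen. The median log2 fold change of all tested genes was 0.00.

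**Figure D1:**
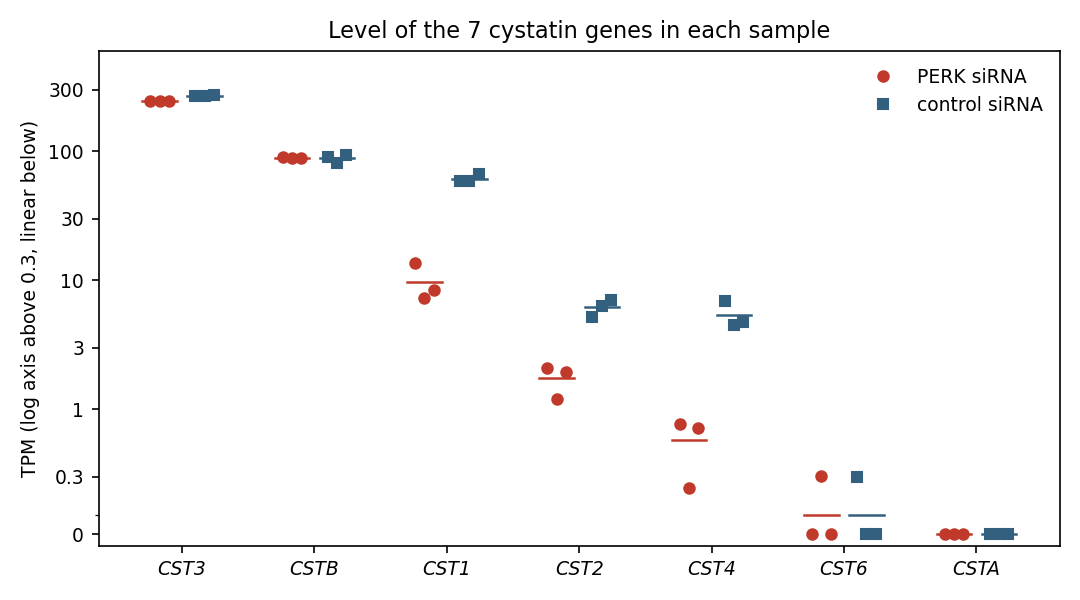
Level of each cystatin gene in TPM (vertical axis, logarithmic above 0.3 and linear below), with each sample as a point and the mean of a group as a line; PERK siRNA samples are red circles and control siRNA samples blue squares. CST1, CST2 and CST4 are separated between groups, CST3 is separated by a small gap (245.2 to 246.4 against 266.4 to 270.6 TPM), CSTB overlaps, and CST6 and CSTA are at or near 0.

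The 7 genes had the same order of mean level in both groups, and the neighbours that overlapped differed. With PERK siRNA the order in TPM was CST3, CSTB, CST1, CST2 and CST4, and each of the first 4 lay above the next in all samples. CST4, at 0.24 to 0.78 TPM, overlapped CST6, at 0 to 0.30 TPM. With control siRNA the order was the same, but CST2, at 5.23 to 6.97 TPM, overlapped CST4, at 4.54 to 6.86 TPM, and CST4 lay above CST6 in all samples. CST1 lay nearer to CSTB in the control siRNA samples, where 58.5 to 66.02 TPM compared with 81.5 to 93.5 TPM for CSTB. By mean TPM, CST1 ranked 9135 with PERK siRNA and 3468 with control siRNA among the 16842 genes with a read, while CST3 ranked 724 and 659.

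The make-up of the summed TPM of the secreted cystatin genes differed between the groups. CST1, CST2 and CST4 together made up 6.25, 3.42 and 4.29% of the summed TPM of the 5 secreted members with PERK siRNA, against 21.0, 20.5 and 22.3% with control siRNA. CST3 held the remainder almost alone, at 93.7 to 96.5% with PERK siRNA and 77.7 to 79.5% with control siRNA. The summed level of the 5 genes was 258.1 ± 3.14 TPM with PERK siRNA and 341.3 ± 6.08 TPM with control siRNA (SD, n = 3 each). In the control siRNA samples the TPM of CST3 was 4.10 to 4.59 times that of CST1, and in the PERK siRNA samples 18.2 to 33.8 times. These shares and ratios rest on the exon lengths behind the TPM, 3615 bases for CST3 and 861 for CST1. The main transcripts in GENCODE v29 have 873 and 760 bases, so CST3 may be understated beside the salivary genes. The same lengths were used in both groups, and which transcripts were made was not tested.

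**Figure D2:**
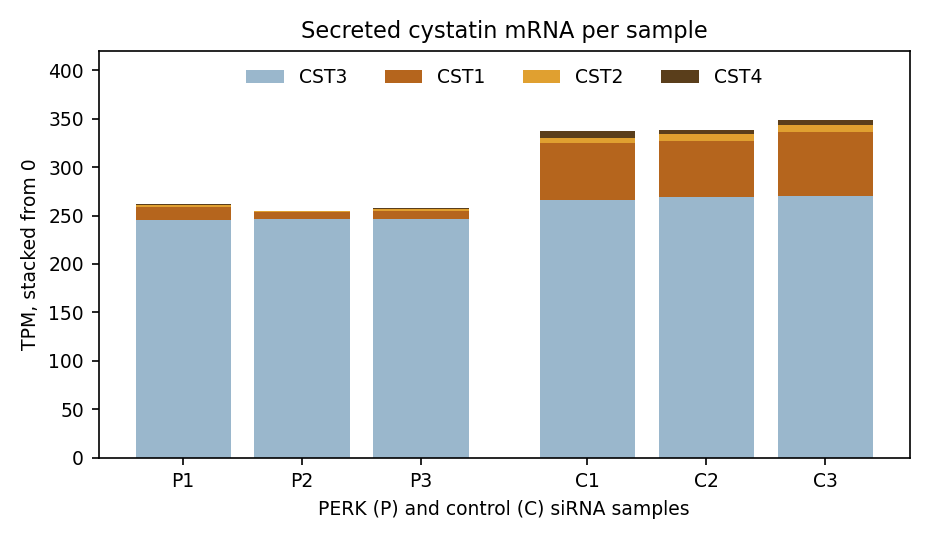
Stacked TPM of CST3, CST1, CST2 and CST4 (vertical axis, from 0) in PERK siRNA samples P1 to P3 and control siRNA samples C1 to C3. The CST3 block is nearly level across samples, and the blocks of the salivary genes above it are thin in P1 to P3. There they hold 3.42 to 6.25% of the summed TPM of the secreted genes, against 20.5 to 22.3% in C1 to C3. Block heights compared between genes depend on the exon lengths behind the TPM.

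Although the salivary genes are close copies, most of their reads were placed uniquely. Of the CST1 reads 91.9% were unique in the PERK siRNA samples and 89.6% in the control siRNA samples. For CST2 the shares were 95.2% and 96.1%, and for CST4, from 7 and 67 reads, 85.7% and 88.1%. All reads of CST3 and CSTB were unique. For comparison, 27.3% of the 50-base words of the main CST1 transcript, 8.30% of those of CST2 and 30.2% of those of CST4 also occur in a transcript of another gene, mostly another of the 3, and none of those of CST3 or CSTB do. With 100-base words these shares were 8.02% for CST1, 0% for CST2 and 8.13% for CST4. The read length was not known here. On unique reads alone CST1 had 56, 32 and 36 reads with PERK siRNA and 257, 234 and 288 with control siRNA, a log2 fold change of -2.62 (SE 0.13). CST2 gave -1.82 (SE 0.33) and CST4 -3.19 (SE 0.47) on unique reads, close to the values on all reads. How the remaining reads were split among the copies is uncertain.

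**Figure D3:**
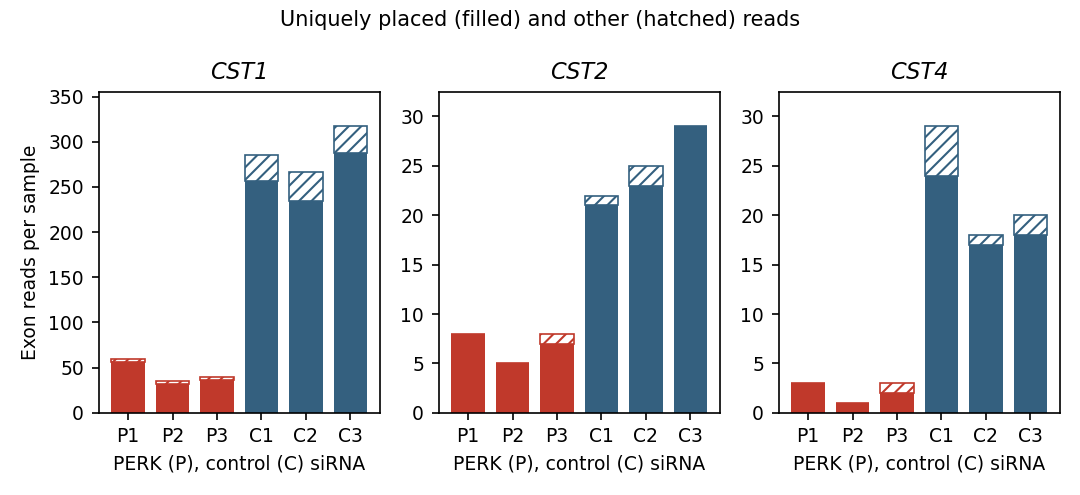
Exon reads (vertical axis, each panel on its own scale from 0) of CST1, CST2 and CST4 in PERK siRNA samples P1 to P3 and control siRNA samples C1 to C3, with uniquely placed reads filled and the others hatched. The filled parts alone separate the groups for each gene, for CST1 at 32 to 56 reads against 234 to 288.

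The 4 genes sit side by side in the cystatin cluster of chromosome 20, with 47.2 kb between CST3 and CST4, 58.5 kb between CST4 and CST1 and 72.5 kb between CST1 and CST2. Of the 16 other genes of the tables that lie within 1 Mb of CST1, 10 had no read, among them the cystatin genes CST5, CST8, CST9, CST9L, CST11 and CSTL1. The 5 that could be tested, chosen for their place after values were seen, moved both ways. NAPB, which encodes a vesicle fusion protein, fell to 4.25 ± 0.49 CPM with PERK siRNA, against 8.23 ± 0.77 CPM with control siRNA (SD, n = 3 each; log2 fold change -0.95, SE 0.12, adjusted p = 5.2e-08 by edgeR). The zinc finger gene GZF1 fell slightly (-0.15, SE 0.05, edgeR adjusted p = 0.0088), but not past the threshold with DESeq2 (adjusted p = 0.058) or without PERK siRNA sample 3 (0.085). SYNDIG1, a synapse-linked membrane protein gene, rose (0.61, SE 0.23, edgeR adjusted p = 0.022), but not past the threshold with DESeq2 (adjusted p = 0.085) or without either of control siRNA samples 2 (0.080) and 3 (0.058) or PERK siRNA samples 1 (0.088) and 3 (0.13). NXT1 (-0.01, adjusted p = 0.90) and THBD (-0.17, adjusted p = 0.55) did not pass edgeR's test.

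The proteases that cystatins block were measured as a list of partners. Of the 11 papain-like cathepsin genes, 9 had enough reads to test, and all 9 passed edgeR's test, 6 rising and 3 falling with PERK siRNA. Of all genes tested 69.5% passed it, 34.4% rising and 35.0% falling. The median log2 fold change of the 9 was 0.39. CTSK and CTSW, with 4 to 11 and 1 to 8 reads per sample, were not tested.

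Among those that fell were the member with the highest TPM and the scarce CTSS. CTSL, a lysosomal endopeptidase that cystatin C binds tightly, fell to 121.2, 121.7 and 122.2 TPM with PERK siRNA, against 184.9, 189.5 and 177.2 TPM with control siRNA (log2 fold change -0.59, SE 0.03, edgeR adjusted p = 7.6e-18). CTSS, known for processing the MHC class II invariant chain in antigen-presenting cells, fell to 2.31 ± 0.35 CPM with PERK siRNA, against 7.48 ± 0.80 CPM with control siRNA (SD, n = 3 each; -1.70, SE 0.14, edgeR adjusted p = 1.5e-11). CTSC, a dipeptidyl peptidase that activates serine proteases of blood cells, fell less (-0.22, edgeR adjusted p = 5.0e-07).

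The other 6 rose. CTSB, which encodes cathepsin B, reached 73.9, 74.5 and 72.3 TPM with PERK siRNA, against 55.9, 55.6 and 53.7 TPM with control siRNA (0.42, SE 0.03, edgeR adjusted p = 6.1e-14). CTSF, whose proenzyme itself carries a cystatin-like domain, reached 42.2, 42.0 and 42.0 TPM with PERK siRNA, against 24.8, 23.9 and 23.1 TPM with control siRNA (0.82, SE 0.05, edgeR adjusted p = 4.4e-14). The scarce CTSO rose (1.27, SE 0.21), as did CTSZ (0.37), CTSV (0.39) and CTSH (0.40), with edgeR adjusted p of 3.4e-06, 1.8e-12, 2.0e-07 and 1.5e-05. CTSH fell outside the rule for named genes and was added after its values were seen. In each of these 9 genes the groups did not overlap in CPM, beside 71.8% of all tested genes.

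The summed level of the 11 genes differed far less than its make-up. It was 332.9 to 333.7 TPM with PERK siRNA and 341.3 to 358.1 TPM with control siRNA. CTSL made up 36.4 to 36.7% of it with PERK siRNA and 51.9 to 52.9% with control siRNA, and CTSB 21.7 to 22.3% with PERK siRNA and 15.5 to 15.8% with control siRNA. The ratio of CST3 to this sum was 0.736 to 0.740 with PERK siRNA and 0.751 to 0.793 with control siRNA, while that of CST3 to CTSL alone was 2.02 with PERK siRNA and 1.42 to 1.53 with control siRNA. These are ratios of TPM, and protein was not measured. The sum, shares and ratios rest on the exon lengths behind the TPM, among them 5110 bases for CTSL, 7880 for CTSB and 13826 for CTSZ. The same lengths were used in both groups, but the weight of each gene in the sum is approximate.

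LGMN and PIGK belong to another protease clan. LGMN encodes legumain, the asparaginyl endopeptidase that cystatins C and E/M block at a second site. It fell to 25.03, 26.7 and 28.1 TPM with PERK siRNA, against 59.5, 61.5 and 61.3 TPM with control siRNA (-1.18, SE 0.05, edgeR adjusted p = 4.8e-18). PIGK, the catalytic subunit of the enzyme that attaches GPI anchors, rose (0.50, SE 0.04, edgeR adjusted p = 1.7e-12). The TPM of CST3 was thus 8.77 to 9.79 times that of LGMN with PERK siRNA and 4.37 to 4.48 times with control siRNA. The same limit on exon lengths holds for these ratios.

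Other inhibitors were few. Of 14 further genes of the cystatin superfamily or related to it, 10 had no read in any sample, including the liver plasma protein genes AHSG, FETUB and HRG. Only LXN, which encodes the carboxypeptidase inhibitor latexin, could be tested, and it did not pass (0.17, SE 0.11, edgeR adjusted p = 0.18; 7.22 ± 0.84 CPM with PERK siRNA and 6.40 ± 0.47 CPM with control siRNA, SD, n = 3 each). The serpin genes SERPINB3, SERPINB4 and SERPINB13, whose products can block cathepsins, had no read.

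The calpains are cytosolic, calcium-dependent cysteine proteases with their own inhibitor, calpastatin, encoded by CAST. CAST rose slightly (0.11, SE 0.02, edgeR adjusted p = 0.00018), as did the small subunit gene CAPNS1 (0.38, SE 0.02, edgeR adjusted p = 2.4e-14), while CAPN2 fell (-0.24, SE 0.02, edgeR adjusted p = 3.2e-10). CAPN1 was near the threshold (0.05, SE 0.02, edgeR adjusted p = 0.045) and did not pass with DESeq2 (0.056), without scaling factors (0.096), without a filter (0.12) or without any of the 3 control siRNA samples (0.061 to 0.097) or PERK siRNA samples 1 (0.070) or 3 (0.21).

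Of the 4 cathepsins that are not cysteine proteases, and so not cystatin targets, CTSA rose (0.30, SE 0.02, edgeR adjusted p = 6.5e-12). The scarce CTSE was lower, at 0.32 ± 0.10 CPM with PERK siRNA and 1.13 ± 0.28 CPM with control siRNA (SD, n = 3 each). Its log2 fold change was -1.81 (SE 0.37), from 7, 7 and 4 reads with PERK siRNA and 18, 27 and 20 with control siRNA. As with CST2 and CST4, CTSE passed the filter on low counts only through the control siRNA samples, where it was high. Its edgeR call (adjusted p = 8.5e-05) is therefore given as a description. CTSD, at 446.0 TPM with PERK siRNA and 431.3 TPM with control siRNA on average, did not pass (0.05, SE 0.03, edgeR adjusted p = 0.063). It did pass with upper-quartile factors (0.017) and without control siRNA sample 1 (0.046) or 2 (0.044) or PERK siRNA sample 2 (0.042). Only 35.7% of the CTSD reads were unique, and 41.7% of its exon positions overlap exons of another protein-coding gene, on either strand. For CTSA 21.1% of exon positions overlap in this way, and 93.5% of its reads were unique. CTSG had no read.

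**Figure D4:**
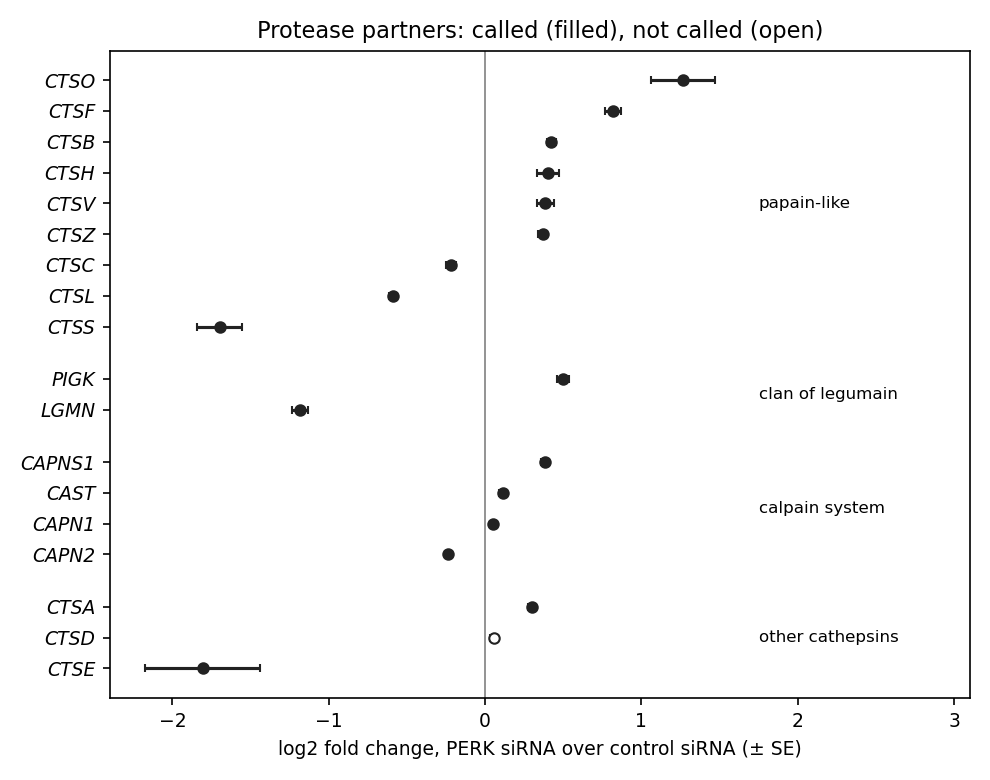
Log2 fold change of PERK siRNA over control siRNA (horizontal axis, with SE bars) for the tested proteases and calpastatin, grouped by family. Filled points passed edgeR's test at an adjusted p of 0.05. CTSS, LGMN and CTSE lie farthest to the left and CTSO and CTSF farthest to the right, and CTSD is the 1 open point. CTSE passed the filter on low counts only through the control siRNA samples.

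Markers of tissues known for cystatins were also read. The salivary gland genes STATH, HTN1, HTN3 and PRB1 had no read. The summed level of that 6-gene list was 0 to 0.14 TPM with PERK siRNA and 0.29 to 0.70 TPM with control siRNA. The control sum was mostly ZG16B, which had only 6, 8 and 3 reads there and 0, 0 and 1 with PERK siRNA. MUC7 had 0 or 1 read per sample. Of 8 squamous epithelium genes, KRT1, KRT5 and SPRR1B had no read, and the list summed to 92.3 to 98.5 TPM with PERK siRNA and 102.2 to 110.2 TPM with control siRNA, nearly all of it KRT10. Of 6 hepatocyte genes, ALB, APOA1, TTR and CYP3A4 had no read, and the list summed to 2.86 to 3.55 TPM with PERK siRNA and 3.16 to 4.12 TPM with control siRNA. The 6 macrophage genes summed to 119.9 to 123.4 TPM with PERK siRNA and 128.4 to 135.0 TPM with control siRNA, nearly all of it CD68 and CD14, with CD163 and MARCO at 0. The 6 endothelial genes summed to 1.65 to 1.98 TPM with PERK siRNA and 5.61 to 5.88 TPM with control siRNA, with CLEC4G at 0. PECAM1 took most in the controls, averaging 4.44 TPM there and 0.31 TPM with PERK siRNA. KDR lay the other way, at 0.89 TPM with control siRNA and 1.21 TPM with PERK siRNA on average. Neither KDR nor VWF passed edgeR's test. The part of all these markers in the cystatin values was likewise not tested.

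The genes whose pattern over the 6 samples was nearest to that of CST1 were sought among 10027 genes whose log2 CPM averaged 3 or more. Likeness was the root mean square difference of log2 CPM centred on each gene's mean. A small value means a like change, while scatter within a group can still differ. The 5 nearest were PLAU, encoding urokinase (0.24), the granin gene SCG2 (0.26), the protease-activated receptor gene F2RL1 (0.26), the metalloproteinase gene ADAMTS15 (0.28) and the growth factor gene VEGFA (0.28). Their log2 fold changes were -2.78, -2.83, -2.84, -2.75 and -2.77, beside -2.65 for CST1. PLAU, the nearest, had 23.2, 20.7 and 20.9 CPM with PERK siRNA and 151.3, 148.9 and 145.3 CPM with control siRNA. These genes had less scatter than CST1 in the PERK siRNA group: CST1 in sample 1 lay at -0.81 from its mean, against -1.28 to -1.39 for the 5. With 2 groups of samples such a likeness reflects mainly the difference between them.

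**Figure D5:**
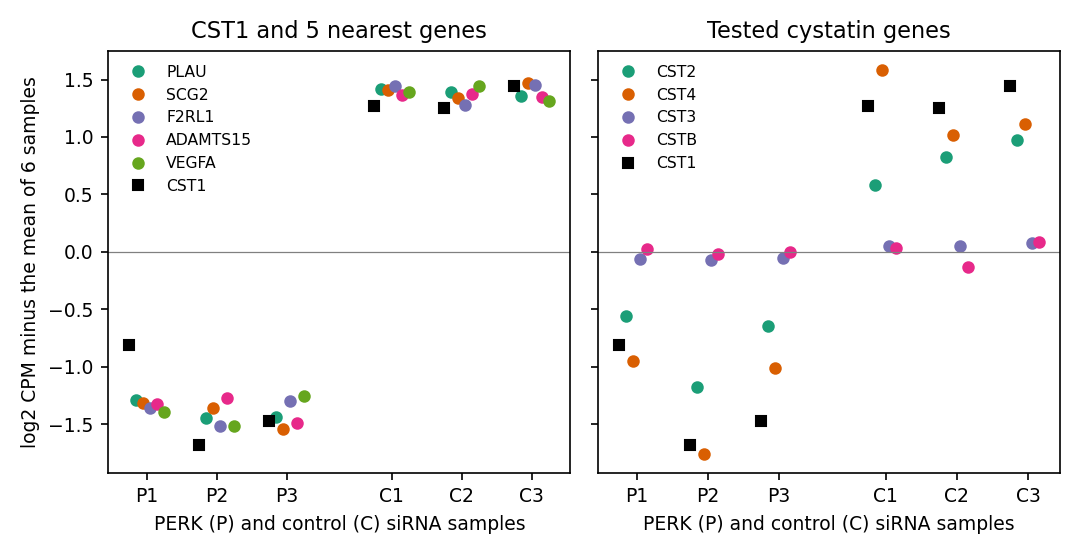
Log2 CPM of each gene minus its mean over 6 samples (vertical axis) in PERK siRNA samples P1 to P3 and control siRNA samples C1 to C3, for CST1 with its 5 nearest genes (left) and for the 5 tested cystatin genes (right). CST1 lies above its nearest genes in P1, at -0.81; CST2 and CST4 lie on the same sides as CST1, and CST3 and CSTB lie near 0.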

How the data were processed

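Sample titles gave each group and replicate, and 1 deposited table per sample was used. The tables hold, per the file headers, whole-number counts of total and of unique exon reads for each gene. They also hold the authors' TPM, which was recomputed from total reads and exon length (largest relative difference 7.1e-08). The submitters' processing notes name hg38. The aligner, the counter, the read length and any use of strand are not given in the sources. Libraries were made with a directional kit, per the labels' protocols.

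Total exon reads were tested with edgeR 4.0.16 in R 4.3.3 (quasi-likelihood, TMM factors, default expression filter, robust dispersion, no covariate) on 12973 of the 16842 genes with a read, with Benjamini-Hochberg adjustment at 0.05. SEs were derived from the F statistic. Of total reads 94.9 to 95.0% were unique per sample. Replicates differed by more than sampling noise (chi-square per degree of freedom 1.65 to 2.31), so none was taken for a copy. On counts simulated for 12874 genes, edgeR found 32 of 50 genes set to differ 1.2-fold and 49 of 50 set to differ 2-fold. It also called 6 of the 12675 genes left alone. The simulation set few genes to differ and took its scatter from edgeR's own fit, whereas 69.5% of genes were called in the data. Its counts therefore do not give the error rate of the calls reported here.

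The members, the lists and the tests were chosen with earlier results of these data known. Named genes were EIF2AK3, the members, up to 8 tested genes per list with the smallest adjusted p, list genes averaging at least 50 TPM, and the 5 genes nearest to CST1. Places and transcript sequences came from GENCODE v29 (GRCh38, the assembly hg38 names), matched on Ensembl identifiers. Of the 7 members 1 had an entry in the RefSeq promoter table, and it is not shown.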

Additional observations from a re-analysis of the deposited data

How the results depend on the processing

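The alternatives changed the scaling (RLE, upper-quartile, none), the filter (none, or 1 CPM in 3 samples), the tool (DESeq2 1.42.0, limma-voom 3.58.1, edgeR with non-robust dispersion), the design (a replicate block) or the reads (unique only), or left out each sample in turn. Between 7884 (DESeq2) and 9285 (no filter) genes were called, against 9014 as reported, and 8543 to 8721 without 1 sample. Same-numbered samples did not deviate together (correlations 0.01, -0.03 and -0.03), and 2 of 6 samples correlated best with their own number. No pairing by number was thus seen, but with 3 samples per group and counting noise a shared batch could be missed. With the replicate block 9003 genes were called. CST1 ranged from -2.96 to -2.48 on the log2 scale, CST2 from -1.96 to -1.60, CST4 from -3.41 to -2.79 and CSTB from -0.06 to 0.05, in each case with samples left out. CST4 was not tested at 1 CPM in 3 samples. CST3 ranged from -0.13 to -0.11 and moved by more than its spread only with upper-quartile factors, to -0.11. All 9 papain-like cathepsin calls, and those of LGMN and PIGK, held under each of the 16 alternatives. At 1 CPM in 3 samples 1 of the 4 other cathepsins was called, since CTSE was no longer tested. Of 30 genes outside the members, 25 kept their direction and side of the threshold wherever they could be fitted; the exceptions were CAPN1, CTSD, GZF1, SYNDIG1 and NXT1. NXT1, never called, changed sign with upper-quartile factors (0.0069) and ranged from -0.048 to 0.029 with samples left out, turning positive without control siRNA sample 1 or PERK siRNA sample 1. Depth limits CST2, CST4 and CST6, with under 30 reads per sample.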
